A study of Mus musculus with 23 samples.

Results

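The regions described here are the accessible sites of mouse gene deserts: of 155137 merged ATAC-seq peak regions on the 19 autosomes and the X chromosome, 17551 (11.3%) lay more than 50 kb from the nearest of 21631 mm10 protein-coding gene bodies. They were chosen by position alone, after peaks of all 23 libraries that overlapped by at least 1 bp had been joined. The other 137586 regions lay inside protein-coding genes (93298) or within 50 kb of one (44288). ATAC-seq uses a transposase to cut and tag open chromatin, so a peak marks DNA that was accessible in the cells of that library. The study followed monocytes that enter the liver when its resident macrophages, the Kupffer cells, are killed, and asked which signals of the niche (DLL4, TGF-beta family ligands through SMAD4, and LXR-alpha, the product of Nr1h3) go with Kupffer cell chromatin.

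The libraries formed 11 groups of 2, except for 1 group of 3, in 4 experiments. In the repopulation experiment, recruited liver macrophages came from Clec4f-cre/Rosa26iDTR mice 24 h (3 mice) or 48 h (2 mice) after diphtheria toxin, in which the Cre driven by the Kupffer cell gene Clec4f switches on the toxin receptor, so that the toxin kills Kupffer cells. Kupffer cells of the same genotype given PBS (2 mice) and Ly6C-high blood monocytes of untreated C57BL/6J mice (2 mice) were set beside them. In the Nr1h3 experiment, untreated TIM4- and TIM4+ Kupffer cells of Nr1h3 flox/flox Clec4f-cre +/- mice (the knockout, 2 libraries each) stood against TIM4+ Kupffer cells of Nr1h3 flox/flox mice without the Cre in the label (the control, 2 libraries). In the Smad4 experiment, untreated Kupffer cells came from Smad4 flox/flox mice with or without Clec4f-cre +/- (2 libraries each), but the titles and the strain labels give opposite genotypes. The titles were followed, so these groups are called the libraries titled Smad4 knockout and titled Smad4 control, and every direction between them turns round if the strain labels are right. In the culture experiment, bone marrow-derived macrophages (BMDMs) of C57BL/6J mice were cultured for 4 days, with the Notch ligand DLL4 for 24 h or without it (2 libraries each). All deletions act in cells with Clec4f-Cre activity, which monocyte-derived cells gain only as they become Kupffer cells, and the culture lacks the other cells of the liver. Ages are not given in the labels.

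Enhancers, silencers, insulators and promoters of non-coding RNAs can lie far from any protein-coding gene and act over long distances through loops of chromatin. In macrophages the pioneer factor PU.1, with AP-1 and C/EBP factors, opens many such sites, and factors that respond to the tissue (LXR-alpha, SMAD4, the Notch partner RBPJ) bind among them. A nearest gene is given here as a landmark and not as a target.

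The libraries held 10.4 to 18.4 M tags and 48775 to 104206 peaks, and 15.4% to 54.7% of the tags fell in peaks, with the fewest in the Smad4 libraries. Promoter windows of Kupffer identity genes carried peaks at 14 to 18 of 25 genes in the Kupffer cell groups, 6 to 8 in blood monocytes and at 24 h, 10 at 48 h and 12 to 13 in BMDMs. Hepatocyte marker promoters had no peak in any library (0 of 12), although 9 members lay nearest to 1 hepatocyte marker gene. Against blood monocytes, 6 of these members were seen only in PBS Kupffer cells (12.8% of all regions in either group). In TIM4- Nr1h3 knockout cells 2 of 3 tested were lower than in control cells (6.68% of all regions tested). Their part in the results was not tested. Neutrophil marker promoters had 7 or 8 of 11 in BMDMs against 1 to 4 elsewhere. The deleted exons are not given in the sources used here, so no peak was used to check the genotypes. In bulk samples, a site that is open in fewer cells and a site that is less open in each cell cannot be told apart.

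Few desert regions started a known non-coding transcript. Of the 17551 members, 4608 (26.3%) overlapped the body of a non-coding gene or pseudogene, mostly of lncRNAs (4185 members, 23.8%), and 282 (1.61%) overlapped 1 of 311 promoter windows of the RefSeq table (250 bases before to 50 after a start). The 5 windows below are shown because their members carry results described later. The first pair start lncRNAs beside the cholesterol exporter gene Abca1. The next pair differ between PBS Kupffer cells and 48 h macrophages in opposite directions (Gm39430 was chosen after its values were seen). The last holds the promoter member of highest mean signal among those called in all 23 libraries. Sequences are from RefSeq for GRCm38.p6 (mm10), 5′ to 3′ on the strand of the transcript, and capitals mark the bases covered by the desert region.
Lexis1 (chr4:53218312-53218611, minus strand): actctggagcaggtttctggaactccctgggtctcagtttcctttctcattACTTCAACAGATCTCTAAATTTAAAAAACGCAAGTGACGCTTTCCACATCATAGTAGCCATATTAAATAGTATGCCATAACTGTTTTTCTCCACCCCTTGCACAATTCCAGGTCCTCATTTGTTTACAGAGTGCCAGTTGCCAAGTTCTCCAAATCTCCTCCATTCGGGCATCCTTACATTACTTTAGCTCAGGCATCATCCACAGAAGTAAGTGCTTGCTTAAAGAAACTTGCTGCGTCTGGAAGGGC
Mexis (chr4:53270183-53270482, minus strand): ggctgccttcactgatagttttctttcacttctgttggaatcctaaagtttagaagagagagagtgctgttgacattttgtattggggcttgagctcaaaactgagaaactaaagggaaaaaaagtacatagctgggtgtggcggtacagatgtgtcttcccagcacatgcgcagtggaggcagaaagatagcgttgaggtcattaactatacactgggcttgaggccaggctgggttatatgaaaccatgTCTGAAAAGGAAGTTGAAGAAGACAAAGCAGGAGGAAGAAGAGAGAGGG
Gm39430 (chr9:111977952-111978251, minus strand): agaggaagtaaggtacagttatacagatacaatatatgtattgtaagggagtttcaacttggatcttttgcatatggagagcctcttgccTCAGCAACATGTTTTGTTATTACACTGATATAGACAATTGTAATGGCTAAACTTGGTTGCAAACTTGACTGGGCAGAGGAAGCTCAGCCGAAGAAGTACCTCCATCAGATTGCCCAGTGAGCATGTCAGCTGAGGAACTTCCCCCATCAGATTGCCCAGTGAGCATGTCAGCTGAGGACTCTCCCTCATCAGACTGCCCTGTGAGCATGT
Gm30657 (chr5:118413532-118413831, minus strand): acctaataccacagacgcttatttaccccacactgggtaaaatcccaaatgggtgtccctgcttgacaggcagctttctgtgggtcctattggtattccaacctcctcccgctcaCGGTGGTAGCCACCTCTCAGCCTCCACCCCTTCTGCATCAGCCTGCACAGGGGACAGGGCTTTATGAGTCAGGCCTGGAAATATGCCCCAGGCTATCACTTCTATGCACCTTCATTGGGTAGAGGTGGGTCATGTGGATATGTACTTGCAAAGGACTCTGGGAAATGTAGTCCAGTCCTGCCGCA
D130051D11Rik (chr15:85634346-85634645, plus strand): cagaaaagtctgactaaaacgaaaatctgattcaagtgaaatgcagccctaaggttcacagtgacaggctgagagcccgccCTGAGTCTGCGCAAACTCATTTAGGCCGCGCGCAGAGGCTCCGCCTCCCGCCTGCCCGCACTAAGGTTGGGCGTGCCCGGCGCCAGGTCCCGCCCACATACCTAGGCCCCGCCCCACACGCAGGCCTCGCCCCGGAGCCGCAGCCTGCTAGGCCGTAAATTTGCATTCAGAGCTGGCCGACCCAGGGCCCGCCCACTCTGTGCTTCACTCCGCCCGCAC

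Motif letters were searched on both strands of these windows. GAGGAAGT, a form of the PU.1 site, was in 10.6% of the 311 windows that members overlapped and in 3.20% of all 32851 windows. TGANTCA, the AP-1 site, was in 12.5% against 7.81%. TTGCNNCAA, a C/EBP form, was in 1.93% against 2.08%, a form of the CTCF site in 4.18% against 2.43%, and CACGTG, the E-box, in 9.32% against 7.15%. None of the 5 motifs contains another. Of the windows shown, Gm30657 held TGANTCA within the accessible part, D130051D11Rik held it outside that part, and Gm39430 held GAGGAAGT outside it. The median GC content was 49.7% in the windows of members and 52.7% in all windows. These matches describe letters and not bound sites.

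Desert regions were shared by fewer libraries than the rest. A peak was present in all 23 libraries at 1671 members (9.52%) and at 24947 of the other regions (18.1%). A peak in 1 library only was seen at 3492 members (19.9%) and at 16.3% of the others. The median member was called in 5 libraries and the median other region in 8. In 5405 members (30.8%, against 26.5% of the others) no group had the peak in all of its libraries. Sharing fell with distance from genes: 11.1% of members at 50 to 100 kb, 9.49% at 100 to 200 kb, 7.45% at 200 to 500 kb and 4.34% beyond 500 kb were called in all 23 libraries. Of regions at the limit, 13.4% of the 1164 regions at 50 to 55 kb and 11.1% of the 1310 at 45 to 50 kb were in all libraries. The median distance was 113 kb and the largest 2138 kb.

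**Figure D1:**
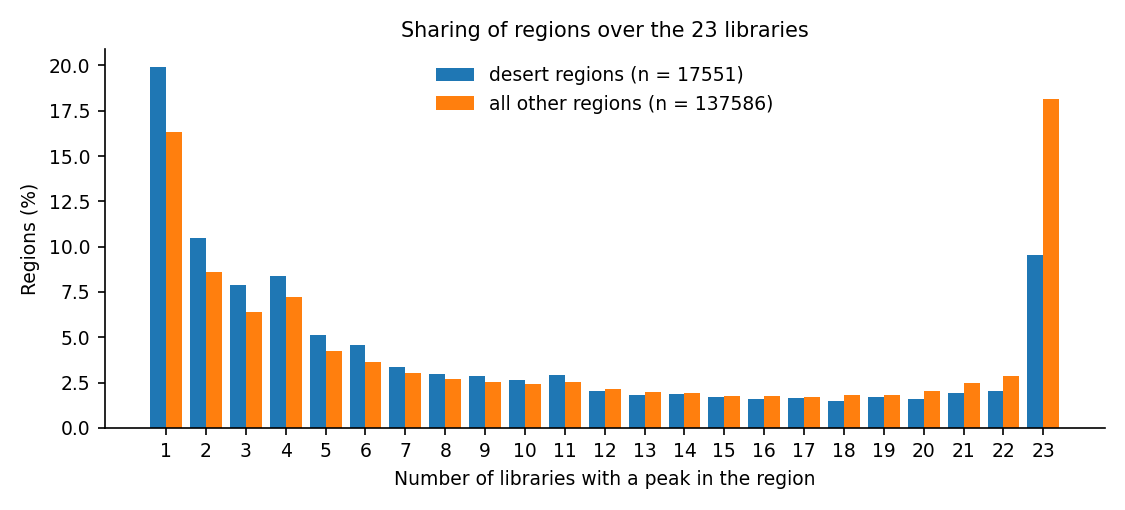
Share of regions (%) by the number of libraries, 1 to 23, in which the region holds a peak, for the 17551 desert regions and the 137586 other regions. Desert regions make the taller bar at 1 library (19.9% against 16.3%) and the shorter bar at 23 libraries (9.52% against 18.1%).

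Within each group the same held. Replicate libraries shared 69.8% of desert regions and 74.6% of the others on average over the 11 groups, and the difference (-4.75 points, range -9.49 to -1.35) was negative in 11 of 11 groups (exact two-sided sign-flip test over groups, p = 0.000977, the smallest this test can give). The share of regions called in every library of a group was 29.8% for desert regions and 38.9% for the others (difference -9.08 points, the same exact sign-flip test, p = 0.000977). It was highest in BMDMs, with 8335 members (47.5%) with DLL4 and 7697 (43.9%) untreated. It was 6141 (35.0%) at 48 h, 5508 (31.4%) in Kupffer cells given PBS, 5123 (29.2%) in blood monocytes, 4956 (28.2%) in TIM4- and 3211 (18.3%) in TIM4+ Nr1h3 knockout cells, 4632 (26.4%) in their control, 4312 (24.6%) at 24 h, 3101 (17.7%) in the titled Smad4 knockout and 4550 (25.9%) in the titled Smad4 control. The number of peaks called differed too, and was 85563 to 104206 in BMDM libraries and 48775 to 53972 in TIM4+ knockout libraries.

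Signal was lower in deserts in every group. Signal here is the deposited normalised tag count of a peak, scaled to 10 M tags. The libraries' median signal was 22.0 and 26.1 in blood monocytes, 21.8 to 22.5 at 24 h, 19.1 and 20.9 at 48 h, and 22.7 and 24.9 in PBS Kupffer cells. It was 14.0 and 14.9 in the titled Smad4 knockout and 14.5 and 15.3 in the titled control, the lowest values, and 18.2 and 20.5 in BMDMs with DLL4 and 17.2 and 21.0 in untreated ones. Averaged over groups the medians were 19.4 in deserts and 27.1 elsewhere. The log2 difference of medians was -0.48 on average (range -0.61 to -0.31) and below 0 in 11 of 11 groups (exact two-sided sign-flip test, p = 0.000977, the smallest possible). The difference nearest to 0 was that of PBS Kupffer cells.

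Desert peaks made up 7.04% to 10.5% of each library's peaks. The share was 10.5% and 9.96% in PBS Kupffer cells, against 8.88% and 8.91% in blood monocytes. Taking the 48720 strongest peaks of each library, it was 9.95% and 9.39% in PBS Kupffer cells and 6.99% to 8.38% in the other 21 libraries, so the 2 libraries stood above all others. The corresponding values at 48 h were 7.78% and 8.03%, below PBS Kupffer cells without overlap (exact two-sided permutation test, p = 0.333, the smallest that 2 libraries against 2 allow). With equal lists, the Nr1h3 knockout libraries had 7.26% and 7.65% (TIM4-) and 7.40% and 7.59% (TIM4+), below the control's 8.10% and 8.38%. The titled Smad4 knockout had 6.99% and 7.10%, below the titled control's 7.997% and 7.707%. No knockout group overlapped its control, and p was 0.333 in each of these exact permutation tests, while the TIM4- and TIM4+ knockout values overlapped (exact permutation test, p = 1). The share of tags in peaks moved with the Smad4 difference: it was 15.4% and 19.6% in the titled Smad4 knockout, against 19.5% and 25.2% in the titled control. In the Nr1h3 experiment it was 43.8% and 41.3% in TIM4- knockout cells and 21.9% and 26.6% in TIM4+ knockout cells. The Nr1h3 control had 33.35% and 26.0%, which overlap the TIM4+ values. The part of these differences in the results was not tested.

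**Figure D2:**
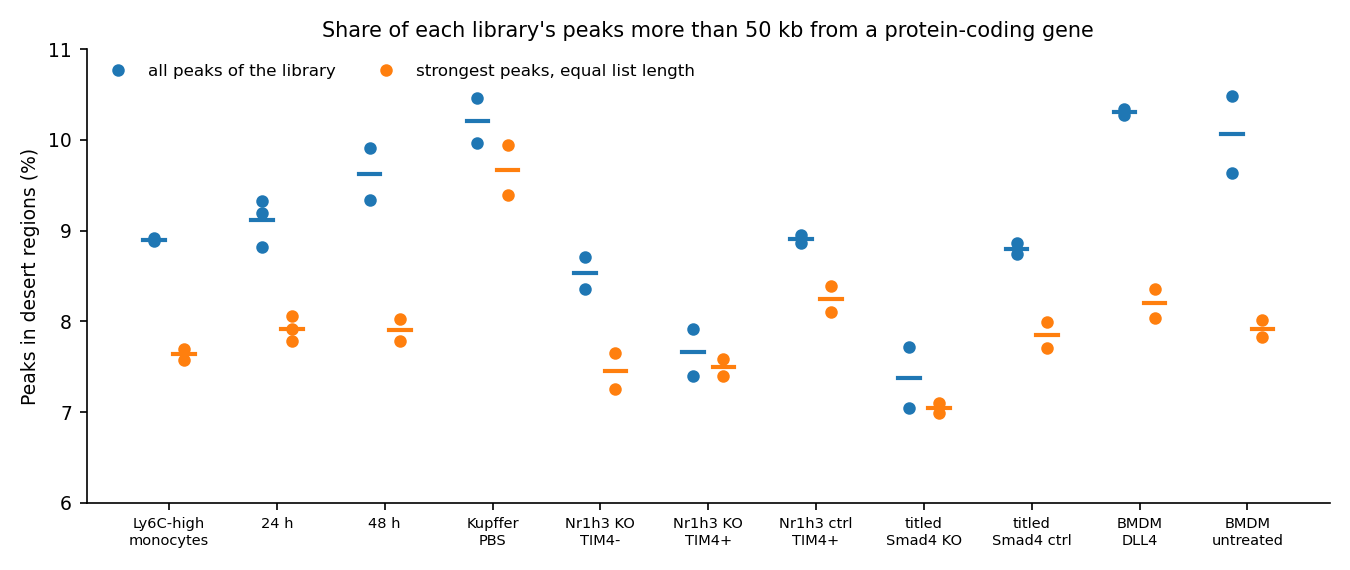
Percent of each library's peaks that lie in desert regions (y axis, which starts at 6%), for all peaks and for the strongest 48720 peaks of each library. Points are libraries and short lines are group means; with equal lists the PBS Kupffer libraries (9.95% and 9.39%) sit above the other 21 libraries.

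The Kupffer cells given PBS had a larger share of peaks far from genes than the other liver and blood groups, though not than BMDMs, whose libraries overlapped theirs. Peaks over 200 kb from a gene were 2.51% ± 0.136 of their peaks (SD, n = 2), against 1.43% to 2.04% in the other liver and blood groups and 2.38% and 2.32% in BMDMs with and without DLL4. Regions called in both PBS libraries and in no other library numbered 255, and 109 of them (42.7%) were desert regions, while desert regions were 0% to 16.1% of the regions exclusive to each other group. Their signal was low, from 6.64 to 26.5 with a median of 12.5, and 58 of the 109 lay over 200 kb from a gene. Against the 10 other Kupffer libraries alone, 220 of 815 regions seen only in the PBS libraries were members (27.0%), against 8 of 222 (3.60%) for regions seen in all of those 10 and in neither PBS library. PBS Kupffer cells and the other Kupffer groups come from different experiments, so the group and the experiment cannot be told apart. Examples are chr14:17432940-17433175, 226 kb from Thrb, with 21.8 and 22.0, and chr2:137969367-137969568, 287 kb from Btbd3, with 26.5 and 15.3.

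Desert regions often lay near one another. They fell into 1743 intervals between neighbouring protein-coding genes, with a median of 5 members, and 238 intervals with 20 or more held 9186 members (52.3%). Another member lay within 10 kb of 78.5% of members. The fullest interval, between Zeb2, a regulator of macrophage identity, and Acvr2a, an activin receptor gene, held 141 members over 3697 kb. Intervals between Nmbr and Cited2 and between Myc and Gsdmc held 118 each, and that between Cd83 and Jarid2 held 99. The intervals between Id2 and Rnf144a and between Klf4 and Actl7b came next, with 91 each.

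**Figure D3:**
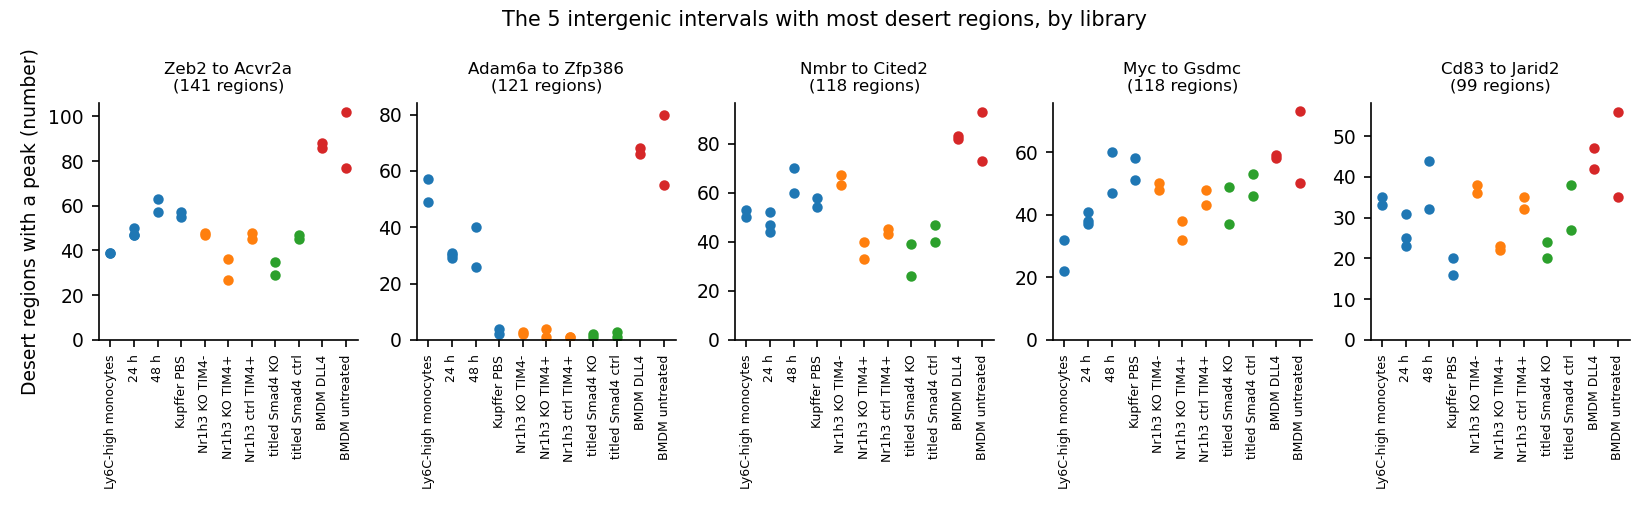
Number of desert regions with a peak in each library (points), by group, in the 5 intergenic intervals with most members. Between Adam6a and Zfp386 all 12 Kupffer libraries hold 1 to 4 regions, while blood monocytes hold 49 and 57 and untreated BMDMs 80 and 55.

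The interval between Adam6a and Zfp386 held 121 members and no region open in all libraries. It spans the variable part of the immunoglobulin heavy chain locus: 184 V segments are annotated in it, and 40 members overlapped a V segment. Blood monocytes had 49 and 57 of these members, 24 h macrophages 29 to 31, 48 h macrophages 26 and 40, and PBS Kupffer cells 2 and 4. The other Kupffer libraries had 1 to 4, and BMDMs had 66 and 68 with DLL4 and 55 and 80 untreated. Between PBS Kupffer cells and blood monocytes, 0 members of this interval were seen only in the Kupffer libraries and 37 only in the monocytes. Over all regions in either group these shares were 12.8% and 15.9%. B cell marker promoters were called at 2 or 3 of 8 genes in BMDMs and at 24 h, 2 at 48 h, 1 or 2 in blood monocytes and 1 or 2 in the Kupffer libraries, and their part in these counts was not tested. In the interval between Myc, the growth regulator, and Gsdmc the order differed: 22 and 32 members in blood monocytes, 37 to 41 at 24 h, 47 and 60 at 48 h, and 51 and 58 in PBS Kupffer cells.

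To compare signal, limma was run over all regions that had a peak in each library of the 2 groups compared, on log2 signal with 1 added and each library centred on its median, and members were read from that fit. A region counted as changed at a Benjamini-Hochberg adjusted p under 0.05. Between 16.3% and 39.2% of the members could be tested in a comparison. Centring removed median shifts of -0.18, 0.09, -0.30, -0.40, -0.23, 0.48, 0.72, -0.27 and 0.06 (log2) in the comparisons in the order given below, and all changes are relative to them. Presence was compared too: a region was group-only when every library of 1 group and no library of the other had a peak. This says that no peak passed the caller and not that the site was closed. For equal lists only the counts of members are given, without shares over all regions. The labels name mice in the repopulation experiment, but where they give only replicate numbers p-values measure the spread between these libraries, which may be technical.

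**Figure D4:**
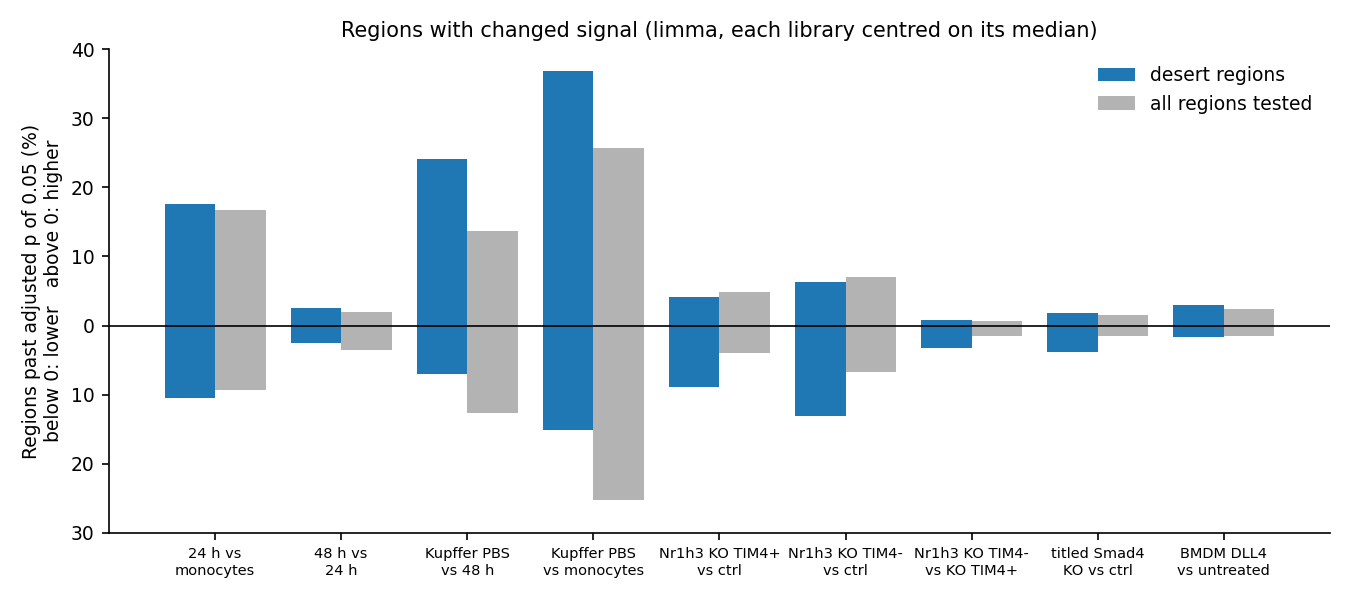
Percent of tested regions whose signal was higher (above 0) or lower (below 0) in the first named group at an adjusted p under 0.05 (limma), for desert regions and all regions tested, in the 9 comparisons. Desert bars exceed the grey bars upward for PBS Kupffer cells (24.0% against 13.7% over 48 h) and downward for Nr1h3 knockout TIM4- cells (13.1% against 6.68%).

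In recruited macrophages at 24 h against blood monocytes, 626 of 3567 tested members were higher (17.5%; 16.7% of all regions tested) and 375 lower (10.5%; 9.33% of all), so deserts changed at about the rate of the genome. The median log2 change was 0.12 in members and 0.09 in all regions. A desert region between Pex2, a peroxisome assembly gene, and 1700008P02Rik (chr3:5860561-5860827, 282 kb from Pex2) had 624, 538 and 478 at 24 h, against 81.4 and 76.1 in blood monocytes. All 3 macrophage libraries lay far above the monocytes (log2 change 3.04, SE 0.138, limma adjusted p = 1.92e-15). It stayed at 475 and 521 at 48 h. The member at the Lexis1 promoter shown above (chr4:53218105-53218560, 58.1 kb from Abca1) had 98.3, 69.9 and 95.8, against 22.8 and 21.1 (2.21, SE 0.265, limma adjusted p = 4.19e-07). A region 92.4 kb from Mitf (chr6:98113740-98114028), the gene of a lysosome regulator, had 68.3, 55.4 and 37.9, against 8.95 and 12 (2.50, SE 0.316, limma adjusted p = 9.39e-07). In the other direction, a region 239 kb from Id2 (chr12:25335136-25335381) had 9.36, 9.99 and 18, against 96.9 and 137 in monocytes (-2.90, SE 0.328, limma adjusted p = 1.66e-07). Id2 encodes an inhibitor of basic helix-loop-helix factors, and this region had no peak in any library outside these groups.

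By presence, 378 members were seen only at 24 h (4.04% of members in either; 3.02% of all regions) and 513 only in blood monocytes (5.49%; 4.49% of all). With equal lists the split was 362 and 385. A region 127 kb from Rasgef1b (chr5:99380202-99380492) had 212, 241 and 125 at 24 h and no peak in monocytes. Without centring, which shifts every region alike, 275 members were higher (7.71% against 4.58% of all) and 513 lower (14.4% against 12.8% of all). Quantile normalisation gave 521 higher (14.6% against 11.9% of all) and 410 lower (11.5% against 11.4% of all). Leaving out blood monocyte replicate 1 or 2 left 594 or 456 changed members of 1001 (28.1%; 26.0% of all).

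From 24 h to 48 h few members changed. At 48 h 102 of 3999 members were higher than at 24 h (2.55%; 1.92% of all) and 100 lower (2.50%; 3.53% of all). A region between 1700017N19Rik and Mgat4c (chr10:100834858-100835123) had 350 and 348 at 48 h, against 97.4, 108 and 58.8 at 24 h (1.86, SE 0.184, limma adjusted p = 2.92e-06). It had no peak in blood monocytes, 349 and 367 in PBS Kupffer cells, and 60.3 to 298 in the other Kupffer libraries. A region 53.9 kb from Nt5e (chr9:88273412-88273675), which encodes the adenosine-producing ectoenzyme CD73, ran the other way with 11.3 and 14.7 at 48 h, against 59.9, 52.7 and 66.4 at 24 h (-2.28, SE 0.296, limma adjusted p = 9.40e-05). It had 123 and 191 in monocytes and no peak in any Kupffer library. By presence, 626 members were seen only at 48 h (6.16%; 5.09% of all) and 66 only at 24 h (0.650%; 0.609% of all), where the 48 h libraries had 75159 and 84395 peaks and the 24 h libraries 63682 to 69027, and equal lists gave 196 and 140. Without centring 112 members were higher (2.80%; 2.28% of all) and 20 lower (0.500%; 0.522% of all). The count of 202 changed members (5.05%; 5.44% of all) was 127, 109 or 377 without 24 h replicate 1, 2 or 3 and 29 or 17 without 48 h replicate 1 or 2.

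Desert regions moved towards higher signal in PBS Kupffer cells. Against 48 h macrophages, 951 of 3955 members were higher (24.0%; 13.7% of all regions) and 275 lower (6.95%; 12.6% of all), with a median log2 change of 0.23 in members and -0.01 in all regions. Against blood monocytes, 1061 of 2880 were higher (36.8%; 25.7% of all) and 434 lower (15.1%; 25.3% of all), with medians of 0.31 and -0.00. Without centring the splits were 528 and 547 against 48 h macrophages (13.4% and 13.8% of members; 6.32% and 25.3% of all regions) and 495 and 589 against monocytes (17.2% and 20.5%; 10.04% and 31.2% of all). Quantile normalisation gave 909 and 261, and 1000 and 452.

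Some desert regions had weak or no peaks until 48 h and strong peaks in PBS Kupffer cells. The region 61.3 kb from Edil3 (chr13:89384553-89385017) had 299.5 and 279 in PBS Kupffer cells, against 11.3 and 19.8 at 48 h (4.46, SE 0.232, limma adjusted p = 5.47e-23). It had no peak in monocytes, in 2 of 3 libraries at 24 h, and in the TIM4- Nr1h3 knockout. A region 90.9 kb from Zdhhc25 (chr15:88508993-88509358) had 183 and 208, against 9.59 and 13.9 at 48 h (4.25, SE 0.257, limma adjusted p = 5.29e-20), and was open in all 12 Kupffer libraries at 84.3 or more. A region 301 kb from Ppp2r3a, towards Ephb1 (chr9:101552822-101553108), had 193 and 204, against 14.8 and 9.53 (4.24, SE 0.260, limma adjusted p = 7.99e-20). These regions had no peak in blood monocytes.

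Other members had a peak in PBS Kupffer cells and at 24 h or 48 h already. The region 657 kb from Tgif2lx2 on the X chromosome (chrX:117770366-117770710) had 344 and 326 in PBS Kupffer cells, against 9.77 and 12.7 in monocytes (5.18, SE 0.235, limma adjusted p = 1.37e-29), with 37.0 to 81.7 at 24 h and 84.5 and 125 at 48 h. The Mexis member (chr4:53269920-53270231), at a promoter of an lncRNA known to respond to LXR and to aid Abca1 expression, had 67.3 and 59.4, against 19.5 and 24.0 in monocytes (1.90, SE 0.294, limma adjusted p = 1.37e-07). Its values at 24 h spread from 22.8 to 55.2. The Gm39430 member (chr9:111977793-111978161, 86.9 kb from Arpp21) had 179 and 172, against 39.2 and 57.2 at 48 h (2.15, SE 0.203, limma adjusted p = 9.46e-13), and no peak in monocytes.

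Among members lost along the series, the one at the Gm30657 promoter (chr5:118413383-118413716, 147 kb from Med13l), whose accessible part holds the AP-1 letters, had 19.9 and 11.5 in PBS Kupffer cells, against 145 and 179 in blood monocytes (-2.93, SE 0.271, limma adjusted p = 8.13e-15). It had 82.5 to 106 at 24 h and 92.4 and 98.3 at 48 h, which overlap and lie above the BMDM values of 36.9 to 59.6. A second region near Id2 (chr12:25389132-25389592, 293 kb) had 16.1 and 11.5, against 208 and 249 in monocytes (-3.58, SE 0.251, limma adjusted p = 5.43e-20), with 50.8 to 88.2 at 24 h and 41 and 34.5 at 48 h. All values of this region at 24 h and 48 h lay between those of monocytes and PBS Kupffer cells, and those at 48 h lay below those at 24 h.

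By presence, 2193 members were seen only in PBS Kupffer cells against monocytes (21.0%; 12.8% of all) and 1794 only in monocytes (17.2%; 15.9% of all). Against 48 h macrophages the counts were 1020 in Kupffer cells only (9.33%; 4.53% of all) and 1554 at 48 h only (14.2%; 12.8% of all), but equal lists turned this to 1128 and 506. The region 165 kb from Efnb2 (chr8:8452163-8452567) had 330 and 334 in PBS Kupffer cells with no monocyte peak within 62.5 kb. A region 216 kb from Gpd2 (chr2:57587146-57587382) had 195 and 298 in monocytes and no peak in any of the 12 Kupffer libraries. The nearest peak of the PBS Kupffer libraries lay 179 kb away. Of the 2193 members that Kupffer cells had and monocytes lacked, 21.8% ± 5.33 (SD, n = 3) were already called at 24 h and 46.2% ± 6.35 (SD, n = 2) at 48 h, against 28.5% and 59.2% of the other such regions. The times did not overlap (exact two-sided permutation test, p = 0.2, the smallest possible), and the 48 h libraries also had more peaks in all. Of the 1794 monocyte members, 57.4% and 59.5% were present at 24 h and 48 h, near the 58.2% and 58.4% of the other such regions.

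**Figure D5:**
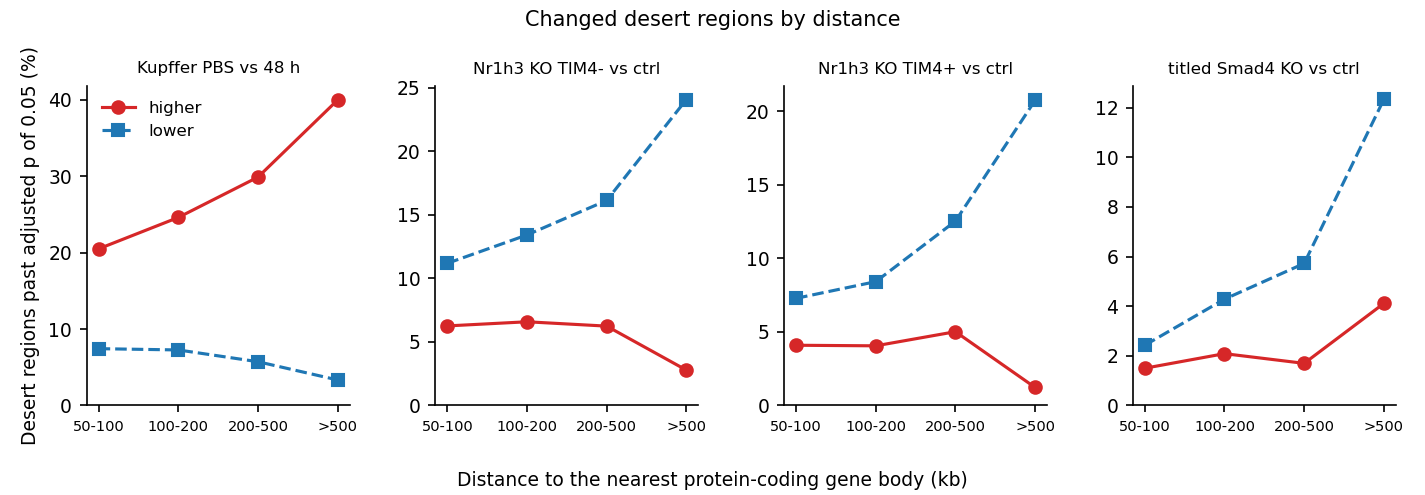
Percent of tested desert regions higher (circles) or lower (squares) at an adjusted p under 0.05 (limma), by distance to the nearest protein-coding gene body (kb), in 4 comparisons. The share higher in PBS Kupffer cells over 48 h climbs to 40% beyond 500 kb, and the share lower in Nr1h3 knockout TIM4- cells to 24.1%.

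In most comparisons these shares grew with distance from genes. The share of members higher in PBS Kupffer cells than at 48 h was 20.5% at 50 to 100 kb, 24.6% at 100 to 200 kb, 29.9% at 200 to 500 kb and 40% (48 of 120) beyond 500 kb. The share that was lower fell over the same bins to 3.33%, against 7.43% nearest to genes. Against monocytes the shares higher were 34.0%, 37.5%, 41.3% and 52.4%. In TIM4- Nr1h3 knockout cells the shares lower than in control were 11.2%, 13.4%, 16.1% and 24.1% (26 of 108). They were 7.28%, 8.41%, 12.5% and 20.7% in TIM4+ knockout cells and 2.43%, 4.28%, 5.72% and 12.3% in the titled Smad4 knockout. At 24 h against monocytes the shares higher were 16.4%, 17.0%, 20.1% and 26.5%. At 48 h against 24 h they were 2.84%, 2.01%, 2.90% and 1.55%, and with DLL4 2.81%, 2.72%, 3.46% and 2.94%, with no such order. The trend was read off and not tested.

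Loss of Nr1h3, the gene of the oxysterol receptor LXR-alpha, went with lower signal in deserts relative to the other regions. In TIM4- knockout cells 235 of 3756 members were higher than in TIM4+ control cells (6.26%; 7.03% of all) and 493 lower (13.1%; 6.68% of all). In TIM4+ knockout cells 125 of 3007 were higher than in the control (4.16%; 4.86% of all) and 268 lower (8.91%; 3.91% of all). The TIM4- comparison differs in the TIM4 sort as well as the genotype, and both comparisons share the control libraries. Median log2 changes were -0.07 in members and 0.08 in all regions for TIM4- cells, and -0.06 and 0.08 for TIM4+ cells. Without centring the splits were 759 higher and 210 lower for TIM4- cells (20.2% and 5.59% of members; 26.3% and 2.51% of all regions) and 9 and 243 for TIM4+ cells (0.299% and 8.08%; 0.149% and 3.49% of all). Quantile normalisation gave 156 and 395 for TIM4- cells (4.15% and 10.5% of members, against 3.63% and 5.50% of all regions). For TIM4+ cells it gave 84 and 277 (2.79% and 9.21% of members, against 2.79% and 4.45% of all).

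The largest fall of a tested member in TIM4- cells was at a region between Acpp and Cpne4 (chr9:104407858-104408273). TIM4- knockout cells had 7.66 and 6.54 and TIM4+ knockout cells 24.3 and 40.3, against 156 and 108 in the control. Neither knockout group overlapped the control, and the TIM4- change was -4.41 (SE 0.256, limma adjusted p = 7.53e-48). PBS Kupffer cells had 208 and 182 there. A region 97.9 kb from Galnt18 (chr7:111373412-111373714) had 7.07 and 6.54 in TIM4- and 16 and 19.8 in TIM4+ knockout cells, against 78.7 and 65.4 in the control (TIM4- change -3.62, SE 0.288, limma adjusted p = 3.10e-28). The region 524 kb from Cdh5 (chr8:103577138-103577573), the gene of VE-cadherin, which Kupffer cells also express, had 20 and 18 in TIM4- and 42.8 and 60.1 in TIM4+ cells, against 114 and 92.4 (-2.78, SE 0.222, and -0.70, SE 0.180, limma adjusted p = 5.90e-28 and 0.00374). The TIM4+ call was lost without either of 2 libraries.

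Regions near Rab28 and Edil3 were low in both knockout populations. The Rab28 region (chr5:41525564-41525844) had no peak in TIM4- cells and 7.66 and 18.4 in TIM4+ knockout cells, against 133 and 102 in the control (TIM4+ change -2.88, SE 0.233, limma adjusted p = 5.48e-31). The Edil3 region had no peak in TIM4- cells and 11.5 and 13 in TIM4+ knockout cells, against 98.9 and 56.1. A region 153 kb from Foxo1 (chr3:52502710-52503079), a transcription factor gene, had 12.4 and 17.4 in TIM4- and 27.4 and 38.9 in TIM4+ cells, against 60.7 and 61.4 (TIM4- change -2.38, SE 0.261, limma adjusted p = 6.25e-16). Near the LXR target gene Abca1, the Lexis1 member had 94.3 and 82.8 in TIM4- and 53.6 and 71.0 in TIM4+ cells, against 131 and 56.8, which overlap. Of 21 tested members nearest to genes of the LXR target list, 1 was higher and 4 lower in TIM4- cells, with a median of -0.35, against -0.07 over all members (6.68% of all regions were lower). In TIM4+ knockout cells 0 of 17 were higher and 1 lower by limma (1 and 2 at an unadjusted p under 0.05), with a median of -0.01, against -0.06 over all members (3.91% of all regions were lower). A member 122 kb from Mylip (chr13:45267478-45267733), an LXR target that degrades lipoprotein receptors, had 63.0 and 34.9 in TIM4- cells, against 85.0 and 56.8 (-0.96, SE 0.202, limma adjusted p = 0.000104), ranges that overlap before centring.

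Other regions were compared between the populations. The Zdhhc25 region had 242 and 215 in TIM4- and 158 and 183 in TIM4+ knockout cells, against 280 and 201 in the control. Before centring only the TIM4+ values lay below the control's. The median shifts that centring removes went opposite ways, 0.48 for TIM4- and -0.23 for TIM4+ cells. These values therefore do not show a difference between the populations at this region. A region 54.0 kb from Ola1 (chr2:73038302-73038769) was higher in TIM4- cells, with mean 133 ± 18.6 against 25.2 ± 3.61 in the control (SD, n = 2 each; 1.95, SE 0.200, limma adjusted p = 5.33e-18). A region 183 kb from Map3k1 (chr13:112001089-112001485), a stress kinase gene, had 110 and 108 in TIM4- knockout cells, against 26.8 and 19.1 in TIM4+ knockout cells (1.47, SE 0.219, limma adjusted p = 1.41e-07). It was open in monocytes (105 and 141), at 24 h and at 48 h, and had no peak in PBS Kupffer cells.

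Between the knockout populations, 26 of 3069 members were higher in TIM4- than in TIM4+ cells (0.847%; 0.607% of all) and 101 lower (3.29%; 1.50% of all). Without centring 1940 were higher (63.2%; 67.7% of all) and 40 lower (1.30%; 0.351% of all), a shift of all regions that centring removes. Quantile normalisation gave 11 and 56 (0.358% and 1.82% of members, against 0.332% and 0.751% of all regions). Group-only members numbered 1013 in TIM4- (14.7%; 10.9% of all) and 65 in TIM4+ cells (0.941%; 0.559% of all), but 176 and 200 with equal lists. Against the control, TIM4+ cells had 70 members of their own (1.05%; 1.06% of all) and lacked 923 (13.9%; 7.69% of all), or 172 and 415 with equal lists. TIM4- cells had 593 (7.57%; 6.60% of all) and lacked 569 (7.26%; 3.50% of all), or 251 and 556 with equal lists. Leaving out control replicate 1 or 2 left 186 or 168 of 393 changed members (13.1%; 8.78% of all) for TIM4+ cells, and leaving out control replicate 2 left 438 of 728 (19.4%; 13.7% of all) for TIM4- cells. Between the knockout populations 127 changed members (4.14%; 2.11% of all) became 74 without either TIM4- replicate and 81 without TIM4+ replicate 1.

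In the libraries titled Smad4 knockout, which lack the common mediator of TGF-beta and BMP signals if the titles are right, 51 of 2858 members were higher than in the titled control (1.78%; 1.57% of all) and 109 lower (3.81%; 1.50% of all). The splits were 2 and 98 without centring (0.0700% and 3.43% of members, against 0.0699% and 1.25% of all regions). They were 18 and 78 with quantile normalisation (0.630% and 2.73% of members, against 0.631% and 1.03% of all regions). The region 165 kb from Efnb2 had 8.93 and 13.6 in the titled knockout, against 82.4 and 107 in the titled control (-2.64, SE 0.230, limma adjusted p = 4.75e-15). Its values in the Nr1h3 knockout were 69.5 and 42.5 (TIM4-) and 49.8 and 70.3 (TIM4+), against 187 and 149 in that control. A region 246 kb from Epha4 (chr1:77761394-77761693) had 11.2 and 9.30, against 78.7 and 89.7 (-2.59, SE 0.243, limma adjusted p = 1.12e-13). It had a peak only in Kupffer libraries, at 58.8 and 47.0 in PBS cells and 9.25 and 15.8 in the Nr1h3 control. The other Galnt18 region, 87.7 kb away (chr7:111383694-111384005), had 6.14 and 11.2, against 47.2 and 75.4 (-2.37, SE 0.268, limma adjusted p = 2.13e-10).

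The same Map3k1 region that was high in TIM4- cells was higher in the titled Smad4 knockout, with 36.8 and 33.5 against 7.87 and 15.3 (1.92, SE 0.283, limma adjusted p = 6.63e-07). Near Irf8, a gene of monocyte and dendritic cell fate, the region at chr8:120818114-120818444 was higher in the titled knockout (1.17, SE 0.241, limma adjusted p = 0.000731), and a neighbour (chr8:120820028-120820298) had 15.1 and 19.2 there and no peak in any other library. The Cdh5 region was lower, with 11.2 and 19.2 against 50.9 and 69.4 (-1.61, SE 0.241, limma adjusted p = 1.06e-06). By presence, 66 members were seen only in the titled knockout (0.935%; 1.24% of all) and 903 only in the titled control (12.8%; 6.97% of all), or 157 and 380 with equal lists. Of 37 tested members nearest to genes of the TGF-beta and BMP list, 0 were higher and 0 lower by limma, against 2 and 1 at an unadjusted p under 0.05, where 1.57% and 1.50% of all regions were called. Without titled control replicate 1 or 2 the 160 changed members (5.60%; 3.07% of all) became 72 or 55.

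DLL4 changed few desert regions in culture. With DLL4, 200 of 6885 members were higher than in untreated BMDMs (2.90%; 2.36% of all) and 113 lower (1.64%; 1.52% of all). The gain with the largest fold was 234 kb from Slc7a11, the cystine transporter gene (chr3:50733448-50733720), with 43.6 and 52.0 with DLL4, against 11.7 and 7.88 untreated (2.16, SE 0.301, limma adjusted p = 2.75e-08). This region had no peak in any blood or liver library. A region 62.9 kb from Runx2 (chr17:44432764-44433119), which encodes a Runt-family factor, had 36.3 and 32.8, against 13.5 and 7.88 (1.61, SE 0.313, limma adjusted p = 0.000201). A region 68.4 kb from Tgfbr2 (chr9:116243737-116244085), a TGF-beta receptor gene, had 49.4 and 39.7, against 16 and 12.3 (1.56, SE 0.286, limma adjusted p = 7.16e-05).

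Near Hes1, the classic Notch target, a region at 51.9 kb (chr16:30013202-30013485) had 66.9 and 63.6 with DLL4, against 33.2 and 31.5 untreated (0.96, SE 0.219, limma adjusted p = 0.00263). In 2 of 4 fits that left out a library this call was lost. Near Myc, also a Notch target, a region at 191 kb (chr15:62181389-62181989) had 33.4 and 26.7, against 10.4 and 8.76 (1.51, SE 0.321, limma adjusted p = 0.000885), a call lost in 2 of 4 such fits. Over the Notch target list 3 of 63 tested members were higher and 3 lower. Their median was -0.08, against 0.02 over all members. The shares over all regions were 2.36% higher and 1.52% lower, and the list was not tested against them. Lower regions included one 97.1 kb from Rnf152 (chr1:105179449-105179818), with 21.8 and 18.5 against 80.5 and 78.8 (-1.97, SE 0.233, limma adjusted p = 2.86e-11), and one 199.5 kb from Klf4 (chr4:55732013-55732317), with 17.4 and 26.0 against 65.7 and 44.7 (-1.34, SE 0.254, limma adjusted p = 0.00012). The Klf4 call was lost in 1 of 4 fits that left out a library.

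By presence, 349 members were seen only with DLL4 (2.72%; 2.10% of all) and 247 only without it (1.93%; 2.00% of all), or 215 and 132 with equal lists. Quantile normalisation gave 99 higher and 46 lower members (1.44% and 0.668% of members, against 0.880% and 0.715% of all regions). Without centring the counts were 196 and 71 (2.85% and 1.03% of members, against 2.66% and 0.883% of all regions). Leaving out DLL4 replicate 1 or 2 left 113 or 139 of 313 changed members (4.55%; 3.88% of all), and leaving out untreated replicate 1 or 2 left 24 or 138.

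Members nearest to genes of macrophage transcriptional regulators were numerous: 1105, nearest to 56 of 93 listed genes, led by Myc (95), Zeb2 (90), Klf4 and Klf6 (79 each) and Id2 (77). Of 222 tested in PBS Kupffer cells against monocytes, 98 were higher and 31 lower, with a median of 0.49, against 0.31 over all members. Among all members tested 36.8% were higher and 15.1% lower, and among all regions 25.7% and 25.3%, and the list was not tested against them. A region 538 kb from Klf4 (chr4:56070654-56071029), a factor of resident macrophages, had 73.9 and 81.5, against 8.95 and 10.6 in monocytes (3.26, SE 0.319, limma adjusted p = 8.59e-14). A region 267 kb from Gata6 (chr18:11352408-11352712), known as the regulator of peritoneal macrophages, had 59.7 and 65.2 in PBS Kupffer cells, against 10.5 and 8.80 at 48 h (2.86, SE 0.323, limma adjusted p = 3.43e-10). It had 6.48 and 8.72 in TIM4- and 9.57 and 9.56 in TIM4+ Nr1h3 knockout cells, against 33.5 and 27.1 in their control, and was lower in both (-2.27, SE 0.322, and -1.25, SE 0.304, limma adjusted p = 7.93e-10 and 0.00162).

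Of 47 tested members nearest to TGF-beta and BMP genes, 5 were higher and 15 lower at 24 h than in monocytes (median -0.38, against 0.12 over all members). The shares over all regions were 16.7% higher and 9.33% lower. Against monocytes, PBS Kupffer cells had 9 of 36 higher and 10 lower, with a median of -0.21, against 0.31 over all members. In that comparison 36.8% of all members tested were higher and 15.1% lower, against 25.7% and 25.3% of all regions. The list was not tested against these shares. The list holds Id2, the nearest gene of 77 of its 164 members, and a second of the lower members lay 421 kb from Id2 (chr12:25516789-25517089). It also holds Bmp2, a BMP ligand gene, where a region at 93.1 kb (chr2:133458764-133459070) was higher (2.55, SE 0.259, limma adjusted p = 3.08e-08). Of 19 members nearest to inflammatory genes, 10 were higher and 2 lower in PBS Kupffer cells than in monocytes, with a median of 0.73 against 0.31 over all members, of which 36.8% were higher (25.7% of all regions), and the 3 with the largest changes lay near Nfkbiz and Tnfaip3, regulators of NF-kappaB. Of 31 Kupffer identity genes only 4 were the nearest gene of any member, with 31 members.

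Some members had a peak in every library. After the chr2 cluster described next, the strongest region called in all 23 libraries was that at the D130051D11Rik promoter (chr15:85634427-85634857, 52.6 kb from Wnt7b), with a mean of 444 and values from 216 to 606. It was followed by regions 162 kb from Akr1e1, towards Klf6 (chr13:4771510-4771781), from 139.5 to 867, and 224 kb from Pcmtd1 (chr1:7397844-7398246), from 99.9 to 618. Members at promoter windows were in all libraries more often than the rest (25.2% of 282, against 9.27%). The region with the highest signal of all, chr2:98667031-98667235, ranged from 3173 to 7561. Its mean of 4819 stood far above the 444 of the next, and whether such signal marks open chromatin was not tested. This region and its neighbours within 10 kb took 1.20% to 13.3% of the member signal of a library, most in titled Smad4 knockout replicate 1. Members on chr14 near Gm2244 (chr14:19417734-19417939 among them) were called in some libraries at 194 to 592 and absent from others of the same group.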

How the data were processed

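ATAC-seq peak files of 23 libraries were used, 1 file per library. Bowtie2, HOMER and the mm10 build are named in the submitters' processing notes, and their versions are not given in the sources used here. Per the file headers, the authors called peaks with HOMER in each library separately, in factor style and without an input, at a peak size and minimum spacing of 200 bp, an FDR limit of 0.001, a 4-fold excess over the surrounding 10 kb and a local p of 0.0001. The deposited signal is the normalised tag count of a peak, scaled to 10 M tags. The deposited score and fold ratio over the local background are the caller's own and served only to describe peaks. A peak list holds no value below the caller's threshold (8 to 11 tags), so depth sets which weak regions appear; libraries held 10.4 to 18.4 M tags.

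From these files, peaks of all libraries were merged at 1 bp, and distances were taken to 21631 protein-coding gene bodies of the RefSeq table for GRCm38.p6, the same assembly as mm10. Where several peaks of a library fell in a region, the highest was used. Signals were compared with limma 3.58.1 in R 4.3.3 on log2 of signal plus 1, after median centring, with a mean-dependent prior and Benjamini-Hochberg adjustment over all regions tested; exact permutation and sign-flip tests were two-sided. The fit was tested on simulated data. Reads could not be recovered as whole counts, so no count test was run. A log2 change understates the change of weak peaks. The members, the gene lists and the naming rule were chosen with earlier results of these data known. Named members were the 3 with the largest change in each direction and comparison, the 2 strongest group-only members per side, the 5 strongest constitutive members, the 5 fullest intervals, the 2 strongest members exclusive to a group, and up to 3 changed members per list and comparison. Python 3.11.15 with pandas 2.3.3, numpy 2.4.6 and matplotlib 3.10.9 did the rest. Alternatives were other distance limits, gene sets, signal minimums, merging, scalings and pseudocounts, all libraries of an experiment in 1 fit, a replicate block, and leaving out each library.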

Additional observations from a re-analysis of the deposited data

Results flagged for a closer look

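Of 1605886 peaks, 1205 lay outside the autosomes and the X chromosome, 447 of them on the Y chromosome and 758 on unplaced or other sequences. They were set apart because they fall in data that no comparison above used.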

How the results depend on the processing

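The number of desert regions followed the distance limit: 30317 at 20 kb, 9880 at 100 kb, 3754 when gene bodies of every type were counted and 10421 from peaks of signal 16 or more. The desert share of peaks per library (9.05% on average) was 16.7%, 4.83%, 1.69% and 7.77% under those settings and 7.94% with equal lists. The lower signal and lower sharing of members kept their sign under every alternative run on them.

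In the order of the comparisons above, the 100 kb limit gave 527, 100, 696, 775, 229, 413, 77, 105 and 171 changed members and 453, 375, 1553, 2320, 591, 707, 588, 587 and 341 group-only members, counting both sides; fewer regions enter by construction. Without centring, changed members numbered 132 (48 h against 24 h), 252 (TIM4+ knockout against control), 1980 (TIM4- against TIM4+ knockout) and 100 (Smad4). Quantile normalisation gave 67 (TIM4- against TIM4+), 96 (Smad4) and 145 (DLL4). TIM4- against TIM4+ gave 191 with a pseudocount of 8 and 79 at signal 16 or more. PBS Kupffer cells against 48 h gave 597 when all libraries of the experiment entered the fit. That fit holds only regions with a peak in all of those libraries, so fewer members enter by construction. The causes of these changes were not tested. Equal lists gave 336 (48 h against 24 h), 1634 (PBS Kupffer against 48 h), 587 (TIM4+ against control), 376 (TIM4- against TIM4+), 537 (Smad4) and 347 (DLL4) group-only members. A signal of 16 or more gave 420, 1685, 571, 612 and 486 for the first 5 of these, and 675 for TIM4- against control.

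Leaving out 1 library gave a desert share of 8.98% to 9.14%, a signal difference of -0.485 to -0.479 and a sharing difference of -5.10 to -4.43 points. Changed members then ranged from 456 to 1296, 17 to 377, 890 to 1184, 1274 to 1427, 168 to 391, 438 to 536, 74 to 107, 55 to 145 and 24 to 139 in the 9 comparisons. Group-only members ranged from 1123 to 1560, 934 to 1917, 3232 to 4187, 4722 to 4960, 1364 to 1842, 1760 to 1859, 1440 to 1866, 1411 to 1962 and 1361 to 1954, since fewer libraries have to lack or share a peak. Of 190 named values, 105 kept their call without any 1 library and 85 lost it in at least 1 such fit. Without centring 146 kept it, 43 lost it and 1 changed sign: the member near Cr2 (chr1:195241459) in TIM4- against TIM4+ knockout cells had a change of 0.033 in that fit, past no threshold. Replicate numbers are shared in the Nr1h3 and BMDM labels, which do not state whether libraries were paired. The libraries were treated as unpaired. Correlations of the replicate differences of the groups compared were 0.0088, -0.0043, 0.061 and -0.038. Each rests on 2 pairs, so it cannot decide whether the libraries were paired. With a replicate block the changed members were 422 (TIM4+ against control), 719 (TIM4- against control), 142 (TIM4- against TIM4+) and 271 (DLL4), and all 84 named values kept their call. Fitting all libraries of an experiment is the same fit for Smad4 and BMDMs, which have 2 groups. Depth limits weak regions: a region with no peak may lie just under the caller's threshold.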
